A study of Arabidopsis thaliana with 29 samples.

Results

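These results describe 150 nuclear genes of Arabidopsis thaliana whose RNA was more abundant in the zygote than at any other stage measured, 144 of them coding for protein. They were selected on their levels in the table of total reads: each count was scaled to a fixed library total as CPM, a level that is not corrected for gene length, and the median over all libraries of a stage was taken. Among the 5902 nuclear genes with a zygote median of at least 20 CPM, the ratio of the zygote median plus 1 to the highest median of the other 7 stages plus 1 was above 1 for 1418, and the 150 with the largest ratio were kept. The table held 33341 genes, 33056 of them nuclear. The genes were thus chosen by zygote levels against the other stages, so those levels are a description and no test is given for them.

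RNA-seq libraries came from hand-isolated hybrid embryos of reciprocal crosses between the accessions Tsu-1 and Col-0 and from unfertilized Col-0 ovules, and their RNA was amplified before sequencing. The mother stands first in the name of a cross: Tsu-1 × Col-0 embryos have a Tsu-1 mother and a Col-0 father, while Col-0 × Tsu-1 embryos carry the same nuclear alleles the other way round. Zygotes were 2 libraries of Tsu-1 × Col-0 and 1 library of Col-0 × Tsu-1, which joined 3 technical libraries. Octant, globular, heart, torpedo, bent and mature embryos had 2 libraries per cross and the ovules, which have no hybrid genotype, had 2, for 29 libraries in 15 groups. The labels call replicates biological without saying which plants or collections they came from, so p-values measure the spread between these libraries, part of which may be technical.

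The zygote is the single cell formed when a sperm cell fuses with the egg cell, and its RNA can come from the egg or from its own, newly active genome. In flowering plants it lies inside the ovule, enclosed by endosperm and by the maternal seed coat. Small secreted peptides with many cysteines, among them thionins, defensins and the LCR and ECA1 families, are numerous in plants and are known from defence and from signalling during reproduction.

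The zygote medians of these genes ran from 20.1 to 5026 CPM with a median of 102 CPM, and the ratio ran from 3.61 to 44.6 with a median of 5.12. For 80 of the 150 the next highest stage was the octant, for 39 the ovule, for 12 the globular and for 8 the heart embryo, and for the other 11 it was a later stage. The median over the genes was 7.96 CPM in ovules, 102 in zygotes, 16.3 in octant, 9.16 in globular, 2.6 in heart, 2.36 in torpedo, 1.07 in bent and 0.516 in mature embryos. At the mature stage 90 of the 150 had a median under 1 CPM. Just inside the threshold were CER2 (an acyltransferase of wax synthesis, ratio 3.68), AT4G16500 (a cystatin, 3.66) and AT5G45460 (uncharacterized, 3.61). Just outside it were AT1G24210 with 3.59, AT1G56415 with 3.58 and AT2G22425 with 3.57.

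The sequences before 5 of the genes are shown because AT5G18661 had the largest ratio and because 2 pairs of thionin genes stand next to each other on their chromosomes and share much of this sequence. Each is the 250 bases before the annotated start, read 5′ to 3′ on the gene's strand from the RefSeq assembly TAIR10.1. They lie at chr5:6222812-6223061 (minus strand) for AT5G18661, chr1:19868336-19868585 (minus) for AT1G53282, chr1:19870096-19870345 (minus) for AT1G53285, chr2:8872757-8873006 (plus) for AT2G20597 and chr2:8876186-8876435 (plus) for AT2G20605. Capitals mark matches on either strand to the searched letters, which were TTGAC for the W box core, TGTCTC for the auxin response element, CACGTG for the G box, TATAAA for the TATA box, TGGGCC for the site II element and AAACCCTA for the telo box.
AT5G18661: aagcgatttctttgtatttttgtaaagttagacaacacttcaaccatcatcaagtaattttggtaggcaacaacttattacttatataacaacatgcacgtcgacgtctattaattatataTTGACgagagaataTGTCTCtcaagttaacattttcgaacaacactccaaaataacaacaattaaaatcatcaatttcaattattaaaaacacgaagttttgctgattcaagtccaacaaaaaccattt
AT1G53282: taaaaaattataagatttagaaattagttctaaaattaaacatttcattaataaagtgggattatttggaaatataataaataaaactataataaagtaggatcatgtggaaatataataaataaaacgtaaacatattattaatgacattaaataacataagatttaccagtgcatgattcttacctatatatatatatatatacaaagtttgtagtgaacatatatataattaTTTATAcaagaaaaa
AT1G53285: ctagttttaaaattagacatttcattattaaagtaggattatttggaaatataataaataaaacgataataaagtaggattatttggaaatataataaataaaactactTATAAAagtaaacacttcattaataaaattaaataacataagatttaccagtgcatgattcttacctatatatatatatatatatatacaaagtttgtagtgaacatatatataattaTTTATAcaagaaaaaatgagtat
AT2G20597: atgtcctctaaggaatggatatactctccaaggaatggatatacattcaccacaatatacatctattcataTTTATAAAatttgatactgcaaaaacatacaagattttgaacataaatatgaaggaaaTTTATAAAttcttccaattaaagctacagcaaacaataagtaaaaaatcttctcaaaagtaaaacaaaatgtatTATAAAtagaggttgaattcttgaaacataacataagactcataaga
AT2G20605: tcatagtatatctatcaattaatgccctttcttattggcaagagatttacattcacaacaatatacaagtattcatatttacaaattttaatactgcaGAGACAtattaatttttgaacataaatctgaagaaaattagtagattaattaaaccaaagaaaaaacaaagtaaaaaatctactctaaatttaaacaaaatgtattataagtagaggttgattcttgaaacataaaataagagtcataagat
AT1G53282 and AT1G53285 were identical at 78.4% of 273 alignment columns, and AT2G20597 and AT2G20605 at 76.4% of 258. The other pairings of the 5 sequences reached 51.9% to 57.1%. In AT2G20597 the forward and reverse forms of TATAAA overlap at 2 places. Over all 150 genes, TATAAA occurred in 50.7% of these windows, TTGAC in 40.0%, TGGGCC in 18.0%, TGTCTC in 14%, CACGTG in 6.0% and AAACCCTA in 3.33%. Over the windows of all 33054 nuclear genes the shares were 46.1%, 44.2%, 12.4%, 11%, 5.86% and 4.57% in that order, and TGGGCC stood in 20.9% of the windows of the genes with at least 20 CPM in zygotes.

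The uncharacterized gene AT5G18661 had 78.7 and 87.3 CPM in Tsu-1 × Col-0 zygotes, 2.65 CPM in the Col-0 × Tsu-1 zygotes, 1.12 and 1.52 CPM in Tsu-1 × Col-0 octant embryos and 0.458 and 0.0869 CPM in Col-0 × Tsu-1 octant embryos. No read of it was counted in either ovule library. Both Tsu-1 × Col-0 zygote libraries lay far above every other library, and the Col-0 × Tsu-1 zygotes lay above all other stages but much nearer to them.

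The thionin-family gene AT2G20605, with the next largest ratio, had 53.6 and 63.3 CPM in Tsu-1 × Col-0 zygotes and 7.92 CPM in the Col-0 × Tsu-1 zygotes, and 1.41 to 2.87 CPM over the 4 octant libraries. Its neighbour AT2G20597 had 77.3 and 110 CPM in Tsu-1 × Col-0 zygotes, 5.98 CPM in the Col-0 × Tsu-1 zygotes and 3.32 to 5.57 CPM at octant. In the other thionin pair, AT1G53285 had 45.3 and 83.2 CPM in Tsu-1 × Col-0 zygotes and no read in the Col-0 × Tsu-1 zygotes, where 0 reads allow up to 0.0497 CPM. AT1G53282 beside it had 26.2 and 25.4 CPM in Tsu-1 × Col-0 zygotes and 0.0497 CPM in the Col-0 × Tsu-1 zygotes. In all 4 thionin genes the Col-0 × Tsu-1 library was thus the lowest zygote library, and whether reads were split between the genes of a pair in the counting was not tested.

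The other genes among the 12 with the largest ratios were of mixed kinds. AT1G51650, the epsilon chain of the mitochondrial ATP synthase, had 6618 and 5026 CPM in Tsu-1 × Col-0 zygotes, 836 CPM in the Col-0 × Tsu-1 zygotes and 273 to 425 CPM at octant. MYB16, a transcription factor of epidermal cell shape and cuticle, had 142.5 and 85.5 CPM in Tsu-1 × Col-0 zygotes, 26.0 CPM in the Col-0 × Tsu-1 zygotes and 2.23 to 9.39 CPM at octant. For both, all 3 zygote libraries lay above every library of the other stages. KIN2, a cold-responsive gene, had 1548 and 2116 CPM in Tsu-1 × Col-0 zygotes and 149.6 CPM in the Col-0 × Tsu-1 zygotes, against 105.2 to 145.5 CPM at octant, so the Col-0 × Tsu-1 zygotes stood close to the octant embryos. The remaining genes were AT4G30450 (a glycine-rich protein), LCR76, the non-coding AT4G04565, NEET (an iron-sulfur protein), CP12-2 (a small protein that binds enzymes of the Calvin cycle) and the thionin AT5G63087, with zygote medians of 34.8, 88.0, 37.3, 86.2, 86.1 and 1444 CPM in that order.

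**Figure D1:**
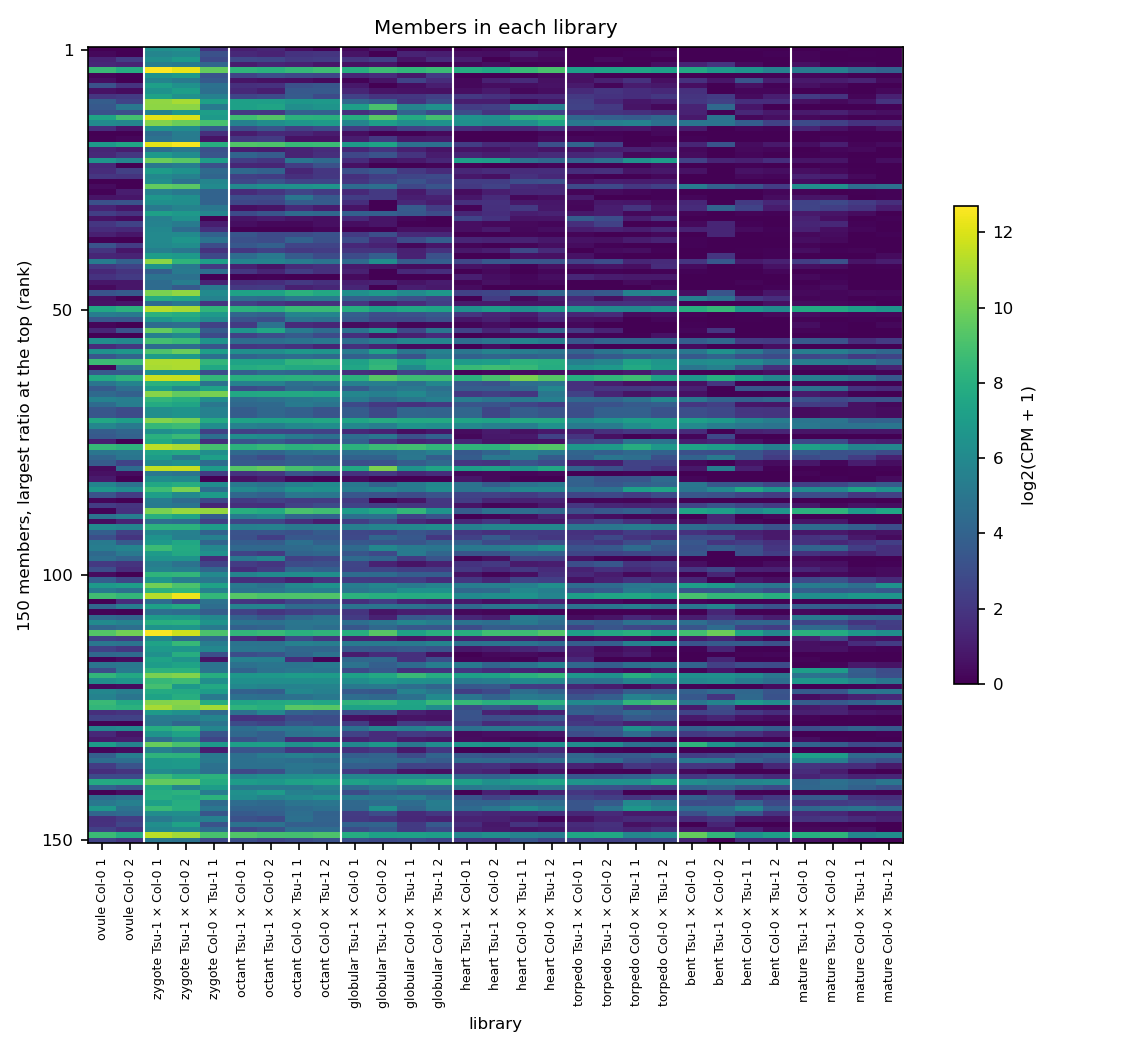
Level of each of the 150 genes (rows, largest ratio at the top) in each of the 29 libraries (columns, by stage and cross), as log2(CPM + 1) on the colour scale. The columns of the 2 Tsu-1 × Col-0 zygote libraries are the brightest for nearly every gene, the Col-0 × Tsu-1 zygote column is darker, and levels fade from octant to mature.

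The zygote signal rested mainly on one cross. All 150 genes were above the highest median of the other stages in both Tsu-1 × Col-0 zygote libraries, and 89 were in the Col-0 × Tsu-1 zygotes. Above every single library of the other stages were all but 1 and all but 2 genes in the Tsu-1 × Col-0 zygotes and 68 genes in the Col-0 × Tsu-1 zygotes, with 67 in all 3 libraries. The Col-0 × Tsu-1 library was the lowest of the 3 zygote libraries for 131 of the 150 genes, which is its place for 37.4% of the 5902. A median over 3 libraries follows the cross that supplies 2 of them, so this difference is part of how the genes were chosen and has no test.

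Summed over the 150 genes, reads took 7.9% and 7.38% of the libraries in Tsu-1 × Col-0 zygotes and 1.6% in the Col-0 × Tsu-1 zygotes. The ovule libraries held 0.701% and 0.69% and the 4 octant libraries 0.899% to 0.961%. By the mature stage the share was 0.124% to 0.252%. Even in the Col-0 × Tsu-1 zygotes the sum exceeded that of any library of another stage. As log2 of the mean Tsu-1 × Col-0 level plus 1 over the Col-0 × Tsu-1 level plus 1, the median was 2.35 for these genes and -0.08 for all 5902.

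**Figure D2:**
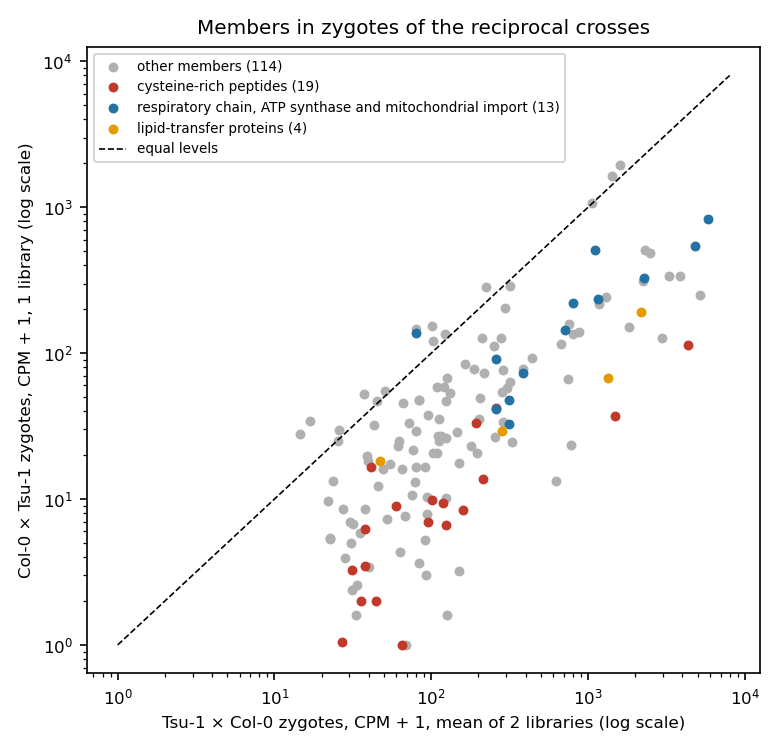
Each point is 1 of the 150 genes, with the mean CPM + 1 of the 2 Tsu-1 × Col-0 zygote libraries on the x axis and CPM + 1 of the Col-0 × Tsu-1 zygote library on the y axis (both log scales). Most points, and all of the 19 cysteine-rich peptides, lie below the dashed line of equal levels, where Tsu-1 × Col-0 zygotes were higher.

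Read on the Col-0 × Tsu-1 zygotes alone, the same rule returned 150 genes of which 22 were among these 150. Its leading genes were AT2G11570, with 2.56 and 0.4 CPM in Tsu-1 × Col-0 zygotes against 59 CPM in the Col-0 × Tsu-1 zygotes, and AT4G14301, with 18.8 and 4.3 CPM in Tsu-1 × Col-0 zygotes against 133 CPM in the Col-0 × Tsu-1 zygotes. The Tsu-1 × Col-0 libraries alone returned 120 of the 150. AT2G07671, a subunit C of ATP synthase, was among the first 12 under the Col-0 × Tsu-1 rule and among the 150, with 48.8 and 108 CPM in Tsu-1 × Col-0 zygotes and 136 CPM in the Col-0 × Tsu-1 zygotes. The Col-0 × Tsu-1 rule also returned genes of mitochondrial products with nearby locus numbers. Among them AT2G07718 (cytochrome b) had 5.46 and 7.33 CPM in Tsu-1 × Col-0 against 95 CPM in Col-0 × Tsu-1 zygotes. For AT2G07777 (a mitochondrial ATP synthase 9) the levels were 1.02 and 1.08 against 27.3 CPM. Whether reads of AT2G07671 were shared with other copies of the gene was not tested.

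The genes were short. Their longest annotated transcripts had a median of 764.5 bases, against 1558 bases for the 5902, and the 144 that code for protein had a median of 112 residues, against 330. Proteins of at most 100 residues made up 39.6% of them (57 of 144), against 5.51% of the 5807 coding genes, and 31.3% had a single exon, against 13.6%. The genes returned from the Col-0 × Tsu-1 zygotes alone had a median transcript of 1382 bases and 5.84% with such short proteins.

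Transcript length moved with the difference between the zygote crosses among the 5902 genes with at least 20 CPM in zygotes, a median over 3 libraries of which 2 are Tsu-1 × Col-0. Over these genes, the median log2 ratio of Tsu-1 × Col-0 to Col-0 × Tsu-1 zygotes was 2.27 for transcripts of up to 400 bases, 1.26 for 600 to 800 bases, 0.00 for 1000 to 1500 bases and -0.50 above 2000 bases. For the 150 genes it was 3.51, 2.35, 2.38 and 1.37 in the same bins, the first resting on 12 genes and the last on 13. The part of length in the zygote levels was not tested, and with 1 library of one cross it cannot be told apart from the cross itself.

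**Figure D3:**
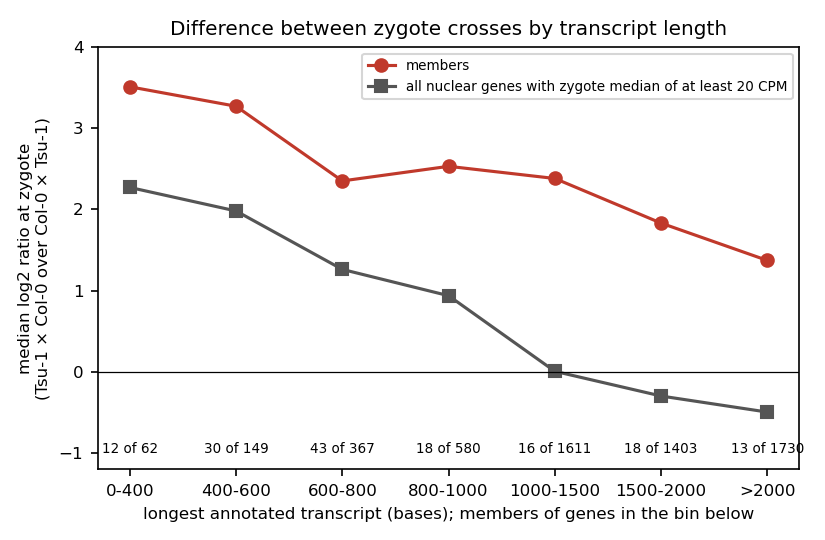
Median log2 ratio of the Tsu-1 × Col-0 to the Col-0 × Tsu-1 zygotes (y axis) by length of the longest annotated transcript in bases (x axis), for the 150 genes (red) and all 5902 genes with at least 20 CPM in zygotes (grey), with the number of genes in each bin. The grey line descends at every step, and the red line descends except for a step up at 800 to 1000 bases. They end at 1.37 (red) and -0.50 (grey) above 2000 bases, and the red line stays above the grey one in every bin.

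By the words of their RefSeq descriptions, a grouping made with the list in view, 19 of the 150 encode cysteine-rich peptides (12.7%, against 1.9% of the 5902). Summed over the 19, the level was 7708 and 7218 CPM in Tsu-1 × Col-0 zygotes and 306.7 CPM in the Col-0 × Tsu-1 zygotes. It was 261.9 and 633.9 CPM in ovules, 509.8 to 1103 CPM at octant, 298.1 to 1326 CPM at globular, 96.4 to 401.6 CPM at heart and at most 59.4 CPM in any later library. The Col-0 × Tsu-1 zygotes therefore lay below all 4 octant libraries and between the 2 ovule libraries. The defensin-like AT1G77525 had 4679 and 4042 CPM in Tsu-1 × Col-0 zygotes and 112.8 CPM in the Col-0 × Tsu-1 zygotes, against 262.5 to 622.1 CPM at octant. The thionin AT5G63087 went the same way, with 1508 and 1444 CPM in Tsu-1 × Col-0 zygotes, 36.3 CPM in the Col-0 × Tsu-1 zygotes and 77.1 to 169.7 CPM at octant.

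Another 13 encode subunits of the respiratory chain or the ATP synthase, or proteins of mitochondrial import (8.67%, against 1.1% of the 5902). Their summed level was 20260 and 16300 CPM in Tsu-1 × Col-0 zygotes and 3224 CPM in the Col-0 × Tsu-1 zygotes, against 2422 and 2391 CPM in ovules and 1316 to 1811 CPM at octant. In this sum all 3 zygote libraries were above every other library. Single genes differed in the Col-0 × Tsu-1 zygotes. AT1G76200 (543 against 828 CPM), AT3G10860 (325 against 396), AT3G18410 (235 against 267) and AT5G59613 (31.9 against 66.7) were below their ovule medians. AT3G62810, with 46.9 CPM, was below its globular median of 65.0 CPM. The rest of the 13 were above the median of every other stage. The subunits of the cytochrome b-c1 complex AT5G05370 and AT3G10860 had zygote medians of 930.1 and 2265 CPM, and SDH8, a small subunit of succinate dehydrogenase, 561.8 CPM. Ribosomal and translation proteins, with 2 of the 150 (1.33%), took a smaller share than among the 5902 (5.02%).

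Smaller sets were 4 lipid-transfer proteins, which carry lipids to the cell surface, 6 chloroplast proteins of carbon and nitrogen metabolism or photosynthesis, 2 MLP-like proteins, 9 zinc finger, MYB, MADS, ERF or response regulator genes and 3 UDP-glycosyltransferases. MLP423 had 4622 and 5796 CPM in Tsu-1 × Col-0 zygotes and 249.7 CPM in the Col-0 × Tsu-1 zygotes, against 369 to 614.1 CPM at octant. The MADS-box gene AGL58 had 157 and 94.3 CPM in Tsu-1 × Col-0 zygotes and 0.596 CPM in the Col-0 × Tsu-1 zygotes. Not all followed that order: IAGLU, which joins glucose to the auxin indole-3-acetic acid, had 137 and 64.6 CPM in Tsu-1 × Col-0 zygotes and 120.8 CPM in the Col-0 × Tsu-1 zygotes, and AT5G07580, an ethylene-responsive transcription factor, had 35.7 and 37.0 against 51.7 CPM. The crosses overlapped for IAGLU, and the Col-0 × Tsu-1 zygotes were the highest library for AT5G07580, one of 7 such genes.

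Lists of marker genes were read in the same libraries. Of 20 genes of zygote polarity and the early embryo none was among the 150, and 0 had the highest median at the zygote. LEC1 stood at 394 and 267 CPM in Tsu-1 × Col-0 zygotes and 286 CPM in the Col-0 × Tsu-1 zygotes. WOX8 stood at 41.8 and 39.3 against 46.1 CPM in the same order. The octant medians of LEC1 and WOX8 were 841 and 208 CPM. PIN7 (12.5 and 14.8 against 69.8 CPM), BBM (6.86 and 9.1 against 22.1) and YDA (1.29 and 4.0 against 15.2) were higher in the Col-0 × Tsu-1 zygotes. NF-YB6 and SSP were lowest there, and the list summed to 603 and 537 against 732 CPM. Of 10 egg cell and RKD genes none was among the 150 either. EC1.5 had 158 and 62.2 CPM in Tsu-1 × Col-0 zygotes and 92.0 CPM in the Col-0 × Tsu-1 zygotes. EC1.1 to EC1.4 were at most 4.06 CPM in any zygote library, and RKD4 was at 0 in all 3. RKD4 was hardly counted at any stage, with medians of 0 from ovule to bent and 0.0187 CPM at mature. The sum of 15 endosperm genes was 31.0 to 56.8 CPM in zygotes and that of 7 synergid genes 0.0507 to 0.739 CPM.

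Genes listed for the seed coat and integument, the mother's tissue around the embryo, were abundant in sum in the zygote and octant libraries. The 20 genes of that list summed to 8710 and 6840 CPM in Tsu-1 × Col-0 zygotes and 7840 CPM in the Col-0 × Tsu-1 zygotes, against 729 and 743 CPM in ovules, 4630 to 7360 CPM at octant, 931 to 2120 CPM at globular and 222 to 475 CPM at heart. In bent embryos the sum was 1120 and 1490 CPM for Tsu-1 × Col-0 and 461 and 221 CPM for Col-0 × Tsu-1. TT4, GSTF12 and LDOX had the largest zygote medians, 3210, 1220 and 935 CPM, against 40.8, 4.57 and 2.36 CPM in ovules. Other genes had lower medians in zygotes than in ovules, among them STK (227 against 320 CPM), INO (25.8 against 86.2) and TT16 (12.5 against 89.4). The zygote had the highest median for 9 of the 20. No gene of the list was at 0 in any zygote or octant library, and 14 of the 20 had a zygote median of at least 20 CPM. One of them, TT10, a laccase that oxidizes seed coat flavonoids, was among the 150, with 119 and 83.5 CPM in Tsu-1 × Col-0 zygotes, 19.8 CPM in the Col-0 × Tsu-1 zygotes and 11.65 to 56.8 CPM at octant. None of 15 genes of wounding and early stress was among the 150. Their sums were 42.7 and 34.9 CPM in ovules and 515 to 576 CPM at octant. In Tsu-1 × Col-0 zygotes they were 295 and 336 CPM, and in the Col-0 × Tsu-1 zygotes 499 CPM. The Col-0 × Tsu-1 zygotes also stood apart in the sums of 12 seed storage genes (61.8 and 78.6 CPM in Tsu-1 × Col-0 zygotes against 1420 CPM) and of 9 pollen and sperm genes (17.3 and 14 CPM against 119 CPM). The pollen and sperm sum there came mainly from VGD1, STP11 and VGDH1, with 42.0, 41.9 and 18.1 CPM. TIP5;1 (11.3 and 3.5 against 3.5 CPM) and HAP2 (0.329 and 1.5 against 0.447 CPM) were not higher in the Col-0 × Tsu-1 zygotes. The part of these tissues in the levels of the 150 genes was not tested. In bulk libraries fewer cells of a type and less RNA per cell cannot be told apart.

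Library totals ran from 689780 to 60410492 reads, with 39485455 and 9996589 reads for the Tsu-1 × Col-0 zygotes and 60410492 for the Col-0 × Tsu-1 zygotes. The shallow libraries were bent Tsu-1 × Col-0 replicate 2 (689780 reads), globular Tsu-1 × Col-0 replicate 2 (1486158) and ovule replicate 2 (2852001). Between 2 libraries of one group, log2 CPM correlated across genes at 0.913 to 0.985, which describes libraries and not independent replicates.

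Some of the 150 genes share genomic space. Neighbouring genes, at most 3 genes apart, formed 11 pairs with 22 of the 150, and 36 of the 150 overlap another annotated gene (5 on the same strand), a smaller share than the 32.4% of the 5902. The labels do not say that counting used strand, so reads of overlapping genes cannot be told apart. AT1G66820 (a glycine-rich protein) and AT1G66830 (a receptor-like kinase) on the other strand had the same 74.98 and 91.18 CPM in Tsu-1 × Col-0 zygotes and the same 46.68 CPM in the Col-0 × Tsu-1 zygotes. The lipid-transfer gene AT1G48750 had 288.4 and 276.6 CPM in Tsu-1 × Col-0 zygotes and 28.3 CPM in the Col-0 × Tsu-1 zygotes, and delta-ADR on the other strand 291.1, 281.8 and 32.5 CPM, so within each of these 2 pairs the levels were nearly or exactly the same. AT5G57569 with AT5G57567, LCR76 with CNX2 and GAD2 with TPX2 overlap in the same way. Pairs without overlap were the 2 thionin pairs, LCR61 with LCR59, the zinc finger genes ZAT7 with AT3G46080, AT2G35795 (a DnaJ chaperone) with AT2G35810, and AT2G04925 with AT2G04910, which overlaps another gene on the opposite strand. The windows before ZAT7 and AT3G46080 were 68.8% identical, and those of the other neighbours outside the thionins 48.0% to 53.8%.

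Stages other than the zygote were then compared. Because the choice of the genes used the highest median of the other 7 stages, the levels of these stages entered it, as the highest one in 80 genes for the octant, 39 for the ovule, 12 for the globular and 8 for the heart embryo. The counts and medians of these comparisons are therefore a description of the chosen genes, their difference from all genes is not independent of the choice, and the adjusted p-values are those of a fit over all genes. The first set octant embryos against unfertilized ovules. Of the 150 genes, 147 passed the filter on low counts, and 58 were higher and 13 lower at octant at an adjusted p under 0.05 (edgeR quasi-likelihood test, Benjamini-Hochberg). Over all 21185 genes tested, 23.1% were higher and 24.6% lower. The median log2 fold change was 0.68 for these genes and -0.04 for all, and placing the 3 genes with no ovule read at their lower bound left it at 0.68. The sum of seed coat genes differed between the same groups, as given above, and its part in these calls was not tested.

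Among cysteine-rich peptides 10 of 18 tested were higher at octant and 2 lower, and 0 of the 13 respiratory genes were higher and 4 lower. LCR61 had 81.5, 124.8, 44.8 and 35.4 CPM in the octant libraries, against 0 and 0.351 CPM in ovules, where 1 read was counted. Every octant library was far above both ovule libraries, and the ratio of pooled reads was 1980 with a 95% counting interval of 355 to 78300 (edgeR adjusted p = 0.000295). AT2G38900, a protease inhibitor of the potato inhibitor I type, had 246.1, 218.9, 525.7 and 440.1 CPM at octant against 0.0986 and 2.45 CPM in ovules, a log2 fold change of 9.62 ± 1.16 (SE; adjusted p = 0.000376). DIP2, annotated as an E3 ubiquitin-protein ligase, had 59.2 to 97.8 CPM at octant against 0.276 and 0 CPM in ovules, with a log2 fold change of 8.43 ± 0.51 (adjusted p = 3.03e-05).

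AT3G01415, annotated as a tubulin-tyrosine ligase, had 5.03 to 8.8 CPM at octant and no read in ovules, at least 57.5-fold higher against a floor of 3 reads over the group (edgeR adjusted p = 0.000226). In the other direction, AT1G53282 had 1 read in all 4 octant libraries, against 2.6 and 3.51 CPM in ovules (adjusted p = 0.000543). LCR62 had 0.217 to 0.435 CPM at octant against 3.08 and 4.91 CPM in ovules, a log2 fold change of -3.39 ± 0.47 (adjusted p = 0.000723). The non-coding AT5G38005 had 2 octant reads against 2.01 and 1.75 CPM in ovules (adjusted p = 0.00241). These 3 genes were thus present in ovules and in Tsu-1 × Col-0 zygotes and nearly absent at octant. AT1G12080, a vacuolar calcium-binding protein, had 3.81, 2.82, 29.6 and 19.4 CPM at octant against 96.6 and 52.95 CPM in ovules, with a log2 fold change of -2.32 ± 0.78 (adjusted p = 0.0368), a call lost without ovule replicate 1 (adjusted p = 0.259).

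Between octant and globular embryos, stages whose medians both entered the choice of the genes, most of the genes that changed fell. Of 145 tested, 57 were lower and 11 higher at globular (edgeR, adjusted p under 0.05, cross as covariate), against 20% lower and 17.1% higher over all 20381 genes. The median log2 fold change was -0.64 for these genes and 0.02 for all. Summed over the 150, the level was 5681, 9412, 5779 and 6470 CPM at globular against 8985, 9388, 9590 and 9611 CPM at octant. The shallow globular Tsu-1 × Col-0 replicate 2 overlapped the octant libraries and the other 3 did not. Of the 16 cysteine-rich peptides tested 9 fell and 0 rose, while of the 13 respiratory genes 0 fell and 2 rose, as did both ribosomal or translation genes.

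KIN2 had 18.8, 12.1, 2.69 and 6.35 CPM at globular against 145.5, 141, 105.2 and 115.8 CPM at octant, with no overlap and a log2 fold change of -3.77 ± 0.35 (edgeR adjusted p = 4.47e-05). TCL1, a small MYB protein that represses trichome formation, had 0.486, 0, 0.0441 and 0.12 CPM at globular against 1.58, 1.52, 3.89 and 7.74 CPM at octant (log2 fold change -4.37 ± 0.77, adjusted p = 0.00133). The expansin EXPA22, which loosens cell walls, had 0.11 to 0.673 CPM at globular against 1.61 to 26.45 CPM at octant (log2 fold change -4.30 ± 0.79, adjusted p = 0.00167). AT4G24974, a homologue of the self-incompatibility protein S1, fell by 3.19 ± 0.35 on the log2 scale (adjusted p = 8.42e-05).

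The rises to globular were smaller. AT3G18410, a subunit of complex I, had 148, 201.2, 385.1 and 234 CPM at globular against 103, 109.1, 128.2 and 123.5 CPM at octant, with no overlap and a log2 fold change of 1.21 ± 0.29 (edgeR adjusted p = 0.00777). AT3G15357, annotated as a phosphopantothenoylcysteine decarboxylase subunit, rose by 1.18 ± 0.32 (adjusted p = 0.0124), although its octant and globular libraries overlapped. The rise of AT4G04595, an RNA of unknown kind, by 2.11 ± 0.65 (adjusted p = 0.0235) was lost without globular Col-0 × Tsu-1 replicate 1 (adjusted p = 0.159). That of the uncharacterized AT4G04925 by 1.07 ± 0.31 (adjusted p = 0.0183) was lost without octant Col-0 × Tsu-1 replicate 2 (adjusted p = 0.0693).

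Between globular and heart embryos, whose medians entered the choice too, nearly all called genes were lower at heart. Of 137 genes tested, 54 were lower and 3 higher at heart (edgeR, adjusted p under 0.05), against 10.8% lower and 6.75% higher over all 19811 genes. The median log2 fold change was -0.93 for these genes and 0.02 for all. AGL58 had 0.113, 0.124, 0.0588 and 0.6995 CPM at heart against 17.1, 18.8, 2.4 and 7.13 CPM at globular, with no overlap (log2 fold change -5.18 ± 0.77, adjusted p = 0.00084). COR15A, a cold-regulated chloroplast protein, had 0, 0, 0.147 and 0.0777 CPM at heart against 3.69, 7.4, 1.9 and 1.8 CPM at globular (log2 fold change -4.95 ± 0.72, adjusted p = 0.000752). The peptide genes LCR76 and LCR59 fell by 4.79 ± 0.89 and 4.72 ± 0.81 on the log2 scale (adjusted p = 0.00333 and 0.00202).

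The 3 genes that rose at heart had different histories. AT1G12080 had 140.1, 128.1, 26.7 and 18.3 CPM at heart against 2.04, 0.673, 0.86 and 1.56 CPM at globular, a log2 fold change of 5.17 ± 0.47 (edgeR adjusted p = 6.5e-05). AT5G07580 had 8.45, 6.63, 8.69 and 10.45 CPM at heart against 0.486, 0.336, 0.617 and 0.539 CPM at globular, a log2 fold change of 4.05 ± 0.37 (adjusted p = 6.87e-05). Both had a low point at globular between higher levels before and after it. The thionin AT1G53285 had 4.85, 2.6, 0.588 and 0.622 CPM at heart against 1.75, 0.673, 0.154 and 0 CPM at globular, so the groups overlapped, and its log2 fold change of 1.71 ± 0.53 (adjusted p = 0.0463) was lost without heart Col-0 × Tsu-1 replicate 1 (adjusted p = 0.12).

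**Figure D4:**
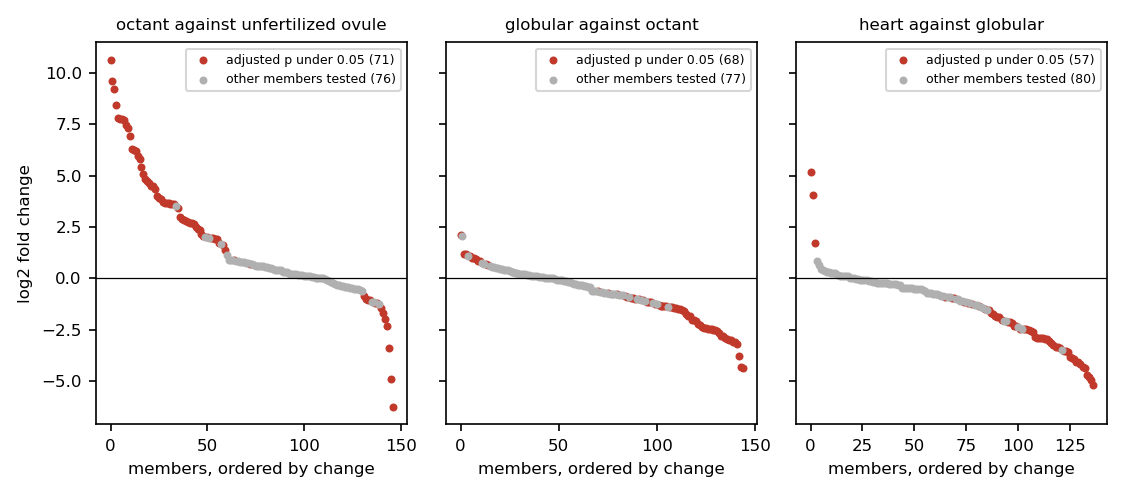
Log2 fold change (y axis) of the 150 genes that passed the filter, ordered by change (x axis), for octant against ovule, globular against octant and heart against globular, with genes at an adjusted p under 0.05 in red. Red points are mostly above 0 in the first panel (58 against 13 below) and mostly below 0 in the other 2 (57 against 11 above, and 54 against 3 above).

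The cross difference seen in zygotes was then set beside the crosses at octant and globular. The choice of genes did not split the crosses at these stages. It did use their medians over both crosses and a zygote median that leans on Tsu-1 × Col-0. The counts of these comparisons are therefore a description too, and their difference from all genes is not independent of the choice. In one edgeR fit of all 29 libraries, 7 of the 150 genes were higher and 8 lower in Tsu-1 × Col-0 than in Col-0 × Tsu-1 octant embryos at an adjusted p under 0.05, against 1.45% higher and 2.03% lower over 25062 genes. The median log2 fold change was -0.25 for these genes and 0.00 for all. This count depended on the fit, with 71 calls when the octant libraries were fitted alone and 6 to 9 with 1 octant library left out. The fit of the octant libraries alone tested 143 of the 150 genes and called 5119 of all 19625 genes. Over all genes the calls were 873 in the main fit and 247 to 293 with 1 octant library left out. The sum over the 150 genes was 8985 and 9388 CPM in Tsu-1 × Col-0 octant embryos against 9590 and 9611 CPM in Col-0 × Tsu-1 octant embryos, so the octant sums of the crosses lay much closer together than the zygote sums.

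AGL58 had 46.4 and 42.9 CPM in Tsu-1 × Col-0 octant embryos against 2.17 and 0.0869 CPM in Col-0 × Tsu-1 octant embryos, in the direction of the zygotes (log2 fold change 5.43 ± 0.94, edgeR adjusted p = 0.00131), a call that DESeq2 did not make (adjusted p = 0.116). AT2G06090, of the self-incompatibility S1 family, had 31.7 and 54.0 against 4.23 and 5.13 CPM (3.22 ± 0.51, adjusted p = 0.000502). EXPA22 had 3.45 and 26.45 against 1.92 and 1.61 CPM, and its log2 fold change of 3.12 ± 0.68 (adjusted p = 0.00755) was lost without octant Tsu-1 × Col-0 replicate 2 (adjusted p = 0.8288). AT5G57569 had 16.02 and 11.6 against 1.43 and 2.26 CPM (2.93 ± 0.54, adjusted p = 0.00181), and this call was lost without octant Col-0 × Tsu-1 replicate 1 (adjusted p = 0.0691).

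In the other direction NEET had 1.765 and 1.09 CPM in Tsu-1 × Col-0 octant embryos against 10.6 and 10.9 CPM in Col-0 × Tsu-1 octant embryos (log2 fold change -2.86 ± 0.47, edgeR adjusted p = 0.000629). In zygotes the order was the opposite, with 86.2 and 135.5 CPM in Tsu-1 × Col-0 and 23.9 CPM in Col-0 × Tsu-1. AT1G12080 (-2.84 ± 0.53, adjusted p = 0.002) and the lipid transfer protein LTP (-2.33 ± 0.49, adjusted p = 0.00494) were likewise higher in Tsu-1 × Col-0 zygotes and lower in Tsu-1 × Col-0 octant embryos. AT2G07671 was lower in both stages, with 3.37 and 3.31 against 14.4 and 13.7 CPM at octant (-2.05 ± 0.47, adjusted p = 0.0112). The last 3 calls were lost with 1 library left out, at adjusted p = 0.0811 for AT1G12080 and 0.154 for AT2G07671 when octant Tsu-1 × Col-0 replicate 2 was left out, and at 0.158 for LTP when octant Tsu-1 × Col-0 replicate 1 was left out.

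At globular 2 of the 150 genes were higher and 4 lower in Tsu-1 × Col-0 than in Col-0 × Tsu-1 embryos (edgeR, adjusted p under 0.05), against 0.383% and 0.367% over 25062 genes, with medians of 0.06 for these genes and -0.03 for all. The higher genes were AT1G53285 (log2 fold change 3.13 ± 0.76, adjusted p = 0.0499) and ATPMEPCRD (2.37 ± 0.58, adjusted p = 0.0499). The lower ones were ELF4, a gene of the circadian clock (-2.29 ± 0.49, adjusted p = 0.0207), AT1G56300, a DnaJ chaperone (-2.28 ± 0.44, adjusted p = 0.0103), AT2G07671 (-2.39 ± 0.55, adjusted p = 0.0325) and the uncharacterized AT5G65880 (-2.09 ± 0.51, adjusted p = 0.0453). Each of the 6 calls was lost with 1 globular library left out, with 0 to 4 calls remaining. Without globular Tsu-1 × Col-0 replicate 1, or without Col-0 × Tsu-1 replicate 1, none of the 150 was called, and without Tsu-1 × Col-0 replicate 2 there was 1. Over all genes the calls were 188 in the main fit and 30 to 226 with 1 globular library left out.

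Parental origin is a measure that the choice of genes did not use. The authors' deposited table gives the maternal share of reads that cover a variant between the accessions, with the libraries of a group pooled, so the values carry no replicate error. Of the 150 genes 90 were in the authors' deposited table, 83 with exon values. Calls required 10 or more variant reads and an adjusted p under 0.05 in each cross. A gene was maternal if the mother's allele was the higher one in both, and accession-biased if one accession's allele was, whichever parent it came from.

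At the zygote 75 of the genes had enough reads, and 26 were maternal in the authors' deposited table, with 1 paternal, 3 higher from the Col-0 allele and 2 from the Tsu-1 allele. Over all 7547 nuclear genes with enough reads in the authors' deposited table, 41.1% were maternal, 0.225% paternal, 1.96% Col-0 higher and 1.11% Tsu-1 higher. The median maternal share of exon reads in the authors' deposited table was 85.5% in Tsu-1 × Col-0 and 75.9% in Col-0 × Tsu-1 zygotes for these genes and 88.5% and 80.9% for all. The 34.7% of maternal calls were thus below the share over all genes, a difference that was not tested. Seed coat RNA is maternal too, and the sum of the seed coat list in the same libraries is given above. The 2 sources of maternal reads cannot be told apart.

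IAGLU had 99.55% maternal reads in both crosses at the zygote in the authors' deposited table, over 2721 variant reads in Tsu-1 × Col-0 and 3623.5 in Col-0 × Tsu-1. The hemoglobin gene HB2 had 99.8% in Tsu-1 × Col-0 and 99.3% in Col-0 × Tsu-1, the peptide gene RTFL16 99.25% and 99.6%, and the fatty acid hydroxylase CYP86A7 99.8% and 95.65% in the same order, in the authors' deposited table. The microRNA gene MIR5015 was the paternal exception, with 0.187% maternal reads in Tsu-1 × Col-0 and 1.27% in Col-0 × Tsu-1 zygotes and 11.2% and 5.63% at octant in the authors' deposited table. These shares sit near the ends of the scale in both crosses.

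In zygotes the accession-biased genes carried mostly 1 accession's allele whichever parent gave it. In the authors' deposited table LCR62 had 0.331% maternal reads in Tsu-1 × Col-0 and 99.1% in Col-0 × Tsu-1 zygotes, AT5G38005 0.133% and 99.1%, and ATPMEPCRD 0.268% and 95.0%, so nearly all their reads were from Col-0 alleles. KIN2, on 22 and 14 variant reads, had 99.02% maternal reads in Tsu-1 × Col-0 and 9.32% in Col-0 × Tsu-1 zygotes in the authors' deposited table, and AT5G45460 99.75% and 13.15%, so most of their reads were from Tsu-1 alleles. This did not hold at every later stage in the authors' deposited table. AT5G45460 was called again at globular, but in torpedo embryos it had 64.93% in Tsu-1 × Col-0 and 48.36% in Col-0 × Tsu-1. LCR62 had 66.86% maternal reads in Tsu-1 × Col-0 torpedo embryos on 58 variant reads, with 1 variant read in the other cross. KIN2 was called maternal at octant, with 94.71% in Tsu-1 × Col-0 and 98.28% in Col-0 × Tsu-1 on 23 and 13 variant reads. ATPMEPCRD had 85.6% and 99.46% in torpedo embryos in the same order, where it was not called. For LCR62, AT5G38005 and ATPMEPCRD the zygotes with the higher level were those in which the father supplied the Col-0 allele.

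At octant 63 genes had enough reads, and 23 were maternal and 1 paternal in the authors' deposited table, against 26.9% maternal and 0.123% paternal over 8916 genes. The median maternal share in the authors' deposited table was 76.3% in Tsu-1 × Col-0 and 80.8% in Col-0 × Tsu-1 octant embryos for these genes and 69.6% and 78.6% for all. Of the 26 genes maternal at the zygote, 15 kept that call in octant embryos in the authors' deposited table, 8 were not called and 3 had too few reads. The same count was not made over all nuclear genes, so it is not known whether this share is usual. MLP423 had 99.9% maternal reads in Tsu-1 × Col-0 and 99.8% in Col-0 × Tsu-1 octant embryos in the authors' deposited table, the lipid-transfer gene AT1G48750 99.5% and 99.6%, AT2G38900 99.4% and 98.96%, and HB2 99.05% and 98.95%.

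At globular the maternal calls were 2 of 59 genes in the authors' deposited table, where 1.9% of 8331 genes were maternal. These were MLP423, with 96.6% maternal reads in Tsu-1 × Col-0 and 99.5% in Col-0 × Tsu-1 embryos, and AT2G38900, with 87.55% and 99.8%, in the authors' deposited table. Higher from the Tsu-1 allele at globular were 3 genes, against 0.744% of all, in the authors' deposited table. AT5G57567, AT2G35810 and AT5G45460 had 98.05%, 93.9% and 84.1% maternal reads in Tsu-1 × Col-0 and 10.3%, 14.4% and 19.85% in Col-0 × Tsu-1 embryos in the authors' deposited table. The median maternal share was 67.9% in Tsu-1 × Col-0 and 59.2% in Col-0 × Tsu-1 embryos for these genes and 56.0% and 55.8% for all in the authors' deposited table. In heart embryos 0 of 54 genes were maternal in the authors' deposited table, against 0.219% of all, and in torpedo embryos 2 of 49, against 0.169%. The summed level of the seed coat list was 931 to 2120 CPM at globular and 222 to 475 CPM at heart, and its part in these shares was not tested.

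**Figure D5:**
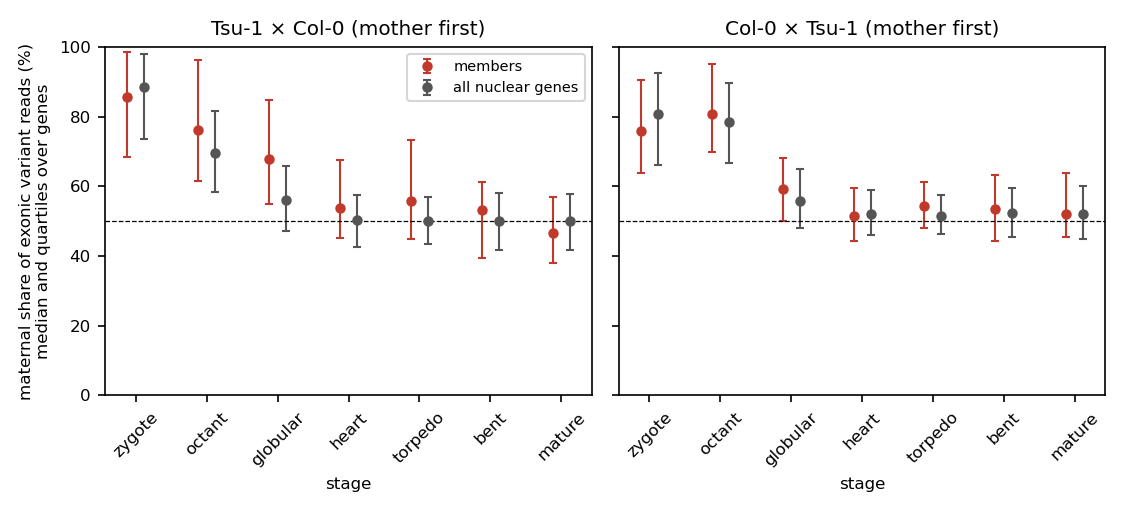
Maternal share of exonic variant reads in percent (y axis) at each stage (x axis) in both crosses, as the median (point) and quartiles (bars) over genes, for the 150 genes (red) and all nuclear genes (grey), from the authors' deposited table. The medians of the 150 genes are 85.5% and 75.9% at the zygote and 53.7% and 51.5% at heart for Tsu-1 × Col-0 and Col-0 × Tsu-1, and the dashed line marks equal shares.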

How the data were processed

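Manual isolation of embryos, RNA amplification (MessageAmp aRNA) and TruSeq RNA libraries are given per the labels' protocols. The submitters' processing notes name STAR 2.7.0d, featureCounts 1.6.0, edgeR and the build TAIR10. The gene table of total reads was deposited by the authors in the form of expected counts (estimated counts, 8.68% to 22.4% of a library's values not whole), not normalized, which were rounded for tests. The authors also deposited, per the file headers, a maternal fraction, an adjusted p-value and a count of variant reads for exons of each gene, with the libraries of each stage and cross pooled, so the planned test of allele counts per library was replaced by these values. The fractions are printed as percent. The deposited fractions are shrunk towards equal shares, most where counts are low.

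The 150 genes and all gene lists were chosen with earlier results of these data known. CPM was taken over the column sum of a library. Tests used edgeR 4.0.16 in R 4.3.3 (filterByExpr, TMM scaling, quasi-likelihood F test, two-sided, Benjamini-Hochberg adjustment over all genes tested, threshold 0.05), with cross as covariate between embryo stages and one group-means fit of all 29 libraries for reciprocal crosses. Alternatives were DESeq2 1.42.0, RLE scaling, no filter, each library left out in turn and the replicate number as a block. The code was tested on simulated data. Names, transcript lengths and the 250 bases before each gene came from RefSeq TAIR10.1, with all 150 genes matched. Windows were aligned with Biopython 1.88. Genes named are the 12 with the largest ratio, up to 4 called genes per direction and comparison with the largest fold change, up to 4 per class of parental call and stage, genes in marker lists, neighbouring genes and 3 on each side of the threshold. Others given as examples of a group were chosen after their values were seen. Depth limits low levels, since 3 reads are 0.0497 CPM in the deepest library and 4.35 CPM in the shallowest. Counting intervals and floors cover counting error only. Intronic fractions were not used here.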

Additional observations from a re-analysis of the deposited data

How the results depend on the processing

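The choice of the 150 genes depended on the zygote libraries. Leaving out 1 zygote library kept 89 to 120 of them, 90 without Tsu-1 × Col-0 replicate 1 and 89 without Tsu-1 × Col-0 replicate 2, and the Col-0 × Tsu-1 zygotes alone kept 22. TMM-scaled CPM or stage means kept 119 each and a pseudocount of 5 kept 136. The counts of called genes were 48 to 71 for octant against ovule, 46 to 73 for globular against octant and 44 to 57 for heart against globular with 1 library left out, against 71, 68 and 57 with all, and 85, 79 and 69 without a filter. Between crosses at octant 15 genes were called, with 29 without a filter, 71 in a fit of the octant libraries alone and 6 to 9 with 1 library left out. Between crosses at globular 6 were called, with 16 without a filter, 10 by DESeq2, 1 in a fit of the globular libraries alone and 0 to 4 with 1 library left out; the causes were not tested. Over all genes the 3 stage comparisons called 10089, 7571 and 3469, and 12944, 8897 and 4756 without a filter. With 1 library left out these all-gene counts were 7307 to 9060, 5113 to 8082 and 2118 to 4009. Between crosses at octant the calls over all genes were 873, with 1324 without a filter, 5119 in the octant libraries alone and 247 to 293 with 1 library left out. Those at globular were 188, with 593 without a filter, 511 by DESeq2, 66 in the globular libraries alone and 30 to 226 with 1 library left out. Parental calls at an adjusted p under 0.01 numbered 21 at the zygote (32 under 0.05) and 3 at globular (5 under 0.05). At the stricter threshold 21.3% of these genes were maternal at the zygote, against 28.8% of all, and 1.69% against 1.09% at globular. Of 397 values of single named genes under alternatives, 332 stayed on the same side of the threshold, 65 lost the call and 0 changed direction.

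The labels do not say whether replicate numbers pair the libraries. Deviations of same-numbered libraries correlated at -0.198 to 0.289 over the comparisons, which with 2 libraries per group cannot decide it. With the replicate number as a block, 65, 56 and 54 genes were called for the 3 stage comparisons, 14 between crosses at octant and 0 at globular. Over all genes the calls with this block were 8788, 5960, 3267, 608 and 67 in the same order. A crossed block at globular, added after seeing the data, gave 2 of the 150, against 93 over all genes.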
